A study of Mus musculus with 2 samples.

Results

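The genes described here are 10 members of the transforming growth factor beta (TGF-beta) pathway, chosen by symbol from 29217 genes in the deposited tables. They are the ligand genes Tgfb1, Tgfb2 and Tgfb3, the receptor genes Tgfbr1 and Tgfbr2, the intracellular genes Smad3 and Smad7, the activator genes Nrros and Itgb8, and the target gene Tgfbi. All 10 were listed in both libraries. The series holds single-cell RNA libraries of whole brain tissue from Balb/c mice, 1 library titled control and 1 titled positive, from a model in which breast cancer spreads to the brain. Both labels give the typing TNBC, triple-negative breast cancer, and name 4T1, a mouse mammary carcinoma line. The treatment field goes against the titles: it reads "with 4T1 metastasis" for the library titled control and "without 4T1 metastasis" for the library titled positive. Cells of clusters named by epithelial markers (Epcam, Krt8, Krt18 and 8 others) are called carcinoma-like below. They were 0 of 9806 kept cells in the control-titled library, which allows a share of up to 0.0306% for cells so named. A cluster left out as mixed, whose highest score was for these markers, held 20 control-titled and 7 positive-titled cells. Carcinoma-like cells were 5899 of 10537 kept cells in the positive-titled library. Groups are therefore named by title only. The sources used here do not give the mice's age and sex, how many were pooled or how the tumour was seeded.

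TGF-beta is secreted as a latent complex in which the mature cytokine stays wrapped in its own propeptide, and it signals only after release. Release on microglia needs NRROS, which holds the latent TGF-beta1 on the myeloid cell surface, and integrin alpha-v beta-8, whose beta subunit is encoded by Itgb8 and which is found on neighbouring brain cells. Free ligand binds TGFBR2, which recruits and phosphorylates TGFBR1, and the active receptor pair phosphorylates SMAD2 and SMAD3. SMAD7 is an inhibitor induced by the signal itself, and Tgfbi encodes an extracellular matrix protein named for its induction by TGF-beta. In the brain the pathway is known for keeping microglia in their resting state and for its part in vessel stability.

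The sequence on which activation by integrin alpha-v beta-8 rests is shown for the ligands that carry it. The 9 capital bases are the codons of arginine, glycine and aspartate, the tripeptide that alpha-v integrins bind in the propeptide, within 63 bases of coding sequence, written 5′ to 3′ on the coding strand (GENCODE M21 transcripts on GRCm38). In Tgfb1 the tripeptide lies at codons 244 to 246 of 390, in exon 5 of 7 (chromosome 7, 25697142 to 25697150, plus strand), and in Tgfb3 at codons 261 to 263 of 412, in exon 5 of 7 (chromosome 12, 86062165 to 86062173, minus strand).
Tgfb1: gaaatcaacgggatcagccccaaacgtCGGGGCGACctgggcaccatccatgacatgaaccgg
Tgfb3: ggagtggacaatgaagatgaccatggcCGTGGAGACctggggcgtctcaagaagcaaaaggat
Each coding sequence held 1 in-frame match. The longest coding sequence of Tgfb2, with 442 codons, held 0.

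In the GENCODE M21 annotation on GRCm38, Tgfb1 lies on chromosome 7 from 25687002 to 25705077, Tgfb2 on chromosome 1 from 186622792 to 186705989 and Tgfb3 on chromosome 12 from 86056745 to 86079041. Tgfbr1 lies on chromosome 4 (47353222 to 47414931), Tgfbr2 on chromosome 9 (116084293 to 116175360), Smad3 also on chromosome 9 (63646767 to 63757994) and Smad7 on chromosome 18. Itgb8 lies on chromosome 12 (119158022 to 119238802), Nrros on chromosome 16 (32142785 to 32165594) and Tgfbi on chromosome 13 (56609523 to 56639562). Tgfb3 overlaps 3 annotated genes on the opposite strand, Ttll5, Gm37804 and Gm48008, and Tgfb2 overlaps Gm26169 and Gm29491. Whether the counting used strand is not given, so the counts of these 2 ligands are uncertain to that extent.

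The control-titled library held 55657687 unique molecular identifiers (UMIs, each standing for 1 captured RNA molecule) over 10417 barcodes, and the positive-titled library 98141261 over 10842. Median depth was 4230 and 7383.5 UMIs per barcode, and 149 barcode sequences occurred in both. Levels are in CPM, the UMIs of a gene scaled to the UMI total of all cells of a class, with 95% Poisson intervals, and ratios are log2 of positive-titled over control-titled. With 1 library per group there is no replicate, no test and no p-value. The intervals cover counting error only, and library, depth and condition cannot be told apart. Classes with at least 50 cells in each library, 6 in all, were compared: microglia-like (2247 control-titled and 651 positive-titled cells), monocyte or macrophage-like (345 and 2225), oligodendrocyte-like (3516 and 838), endothelial cell-like (511 and 99), fibroblast-like (96 and 72) and T cell-like (51 and 209). Most clusters came from 1 library only. RNA from other cells was measurable in every class. Carcinoma markers in the positive-titled library reached 10.96 to 13.9% of their level in carcinoma-like cells in 5 of the compared classes, and 50.3% in T cell-like cells. Oligodendrocyte markers in the control-titled library stood at 3.35 to 7.35% of the oligodendrocyte-like level in the compared classes other than oligodendrocyte-like cells. The part of these markers, and of the depth gap, in the ratios below was not tested except where a value is given. For each class, the median log2 ratio was taken over genes with 50 or more UMIs in that class in each library. It was -0.14 in microglia-like, -0.26 in monocyte or macrophage-like and -0.19 in oligodendrocyte-like cells. In T cell-like cells it was -0.14, in fibroblast-like cells -0.10, and in endothelial cell-like cells near 0.

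Each ligand gene had its own set of high cell classes. Tgfb1 had its highest levels in immune cells. In the control-titled library it was at 191 CPM in microglia-like cells (95% interval 182 to 201, 1533 UMIs) and 133 CPM in the monocyte or macrophage-like class (117 to 150), intervals that do not overlap. NK cell-like cells, at 106 CPM (50.9 to 195, 10 UMIs), could not be ordered against either. T cell-like, pericyte-like and endothelial cell-like cells followed at 61.7, 61.2 and 53.7 CPM, with overlapping intervals, and oligodendrocyte-like cells were at 4.71 CPM (3.88 to 5.67). Microglia-like cells held 63.1% of the library's 2431 Tgfb1 UMIs. In the positive-titled library carcinoma-like cells held 49.6% of 3745 Tgfb1 UMIs, though their level was only 28.5 CPM (27.2 to 29.8). NK cell-like (119.6 CPM, 82.8 to 167), monocyte or macrophage-like (88.5, 83.7 to 93.6) and B cell-like cells (88.1, 46.9 to 151) had the highest levels there.

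Tgfb2 had its highest levels in vessel-associated and choroid plexus-like cells. In the control-titled library smooth muscle cell-like and endothelial cell-like cells were both at 115 CPM (88.9 to 147 and 103 to 129), choroid plexus-like cells at 81.7 (59.8 to 109) and pericyte-like cells at 69.0 (52.9 to 88.4), each overlapping the next. Astrocyte-like cells were at 39.0 CPM (34.6 to 43.8), while microglia-like and oligodendrocyte-like cells were at 2.87 and 1.68 CPM. The positive-titled library held 163 Tgfb2 UMIs in all, 1.73 CPM over all kept cells, against 1079 UMIs and 21.1 CPM in the control-titled library. Fibroblast-like (56.2 CPM, 39.6 to 77.4), astrocyte-like (54.5, 20.01 to 119, 6 UMIs) and endothelial cell-like cells (29.6, 18.8 to 44.4) led there, and carcinoma-like cells were at 1.10 CPM (0.863 to 1.39).

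Tgfb3 stood out in smooth muscle cell-like cells, at 420.4 CPM in the control-titled library (368 to 478, 233 UMIs). Fibroblast-like cells came next at 88.1 CPM (64.5 to 118) and oligodendrocyte-like cells at 20.2 (18.4 to 22.1), and neither interval overlaps the class above it. Oligodendrocyte-like cells, the largest class, held 52.7% of its UMIs. Microglia-like cells were at 0.249 CPM (2 UMIs) and T cell-like and NK cell-like cells at 0, which allows up to 14.2 and 31.9 CPM at 3 counts. In the positive-titled library fibroblast-like cells were at 89.6 CPM (68.2 to 116) and carcinoma-like cells at 50.4 (48.6 to 52.1), and the latter held 87.1% of 3773 Tgfb3 UMIs.

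The activator genes had their highest levels in different cells. Nrros was highest in the monocyte or macrophage-like class of the control-titled library, at 216 CPM (196 to 238), followed by microglia-like cells at 163 (154 to 172). Oligodendrocyte-like cells, which are not known to make it, were at 2.31 CPM (1.74 to 3.01). In the positive-titled library microglia-like cells were at 142 CPM (130.2 to 155), monocyte or macrophage-like cells at 119.98 (114 to 126) and dendritic cell-like cells at 114 (81.9 to 155). The dendritic cell-like interval overlaps both others, and carcinoma-like cells were at 3.19 CPM. By cells, 38.6% of control-titled and 49.3% of positive-titled microglia-like cells had a Nrros UMI, at median depths of 3184 and 4889 UMIs. Thinned to 1000 UMIs per cell, the shares were 14.2 and 13.5%. In oligodendrocyte-like cells they were 1.42% and 2.27% unthinned, at median depths of 6168 and 4788 UMIs.

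Itgb8 was highest in astrocyte-like cells, at 197 CPM in the control-titled library (187 to 207, 1432 UMIs). Choroid plexus-like cells were at 94.2 CPM (70.5 to 123), neuron-like cells at 77.4 (42.3 to 130), ependymal-like cells at 68.3 (53.4 to 85.98) and oligodendrocyte-like cells at 67.4 (64.1 to 70.8), with intervals that overlap among these 4 but not with astrocyte-like cells. Between them, oligodendrocyte-like and astrocyte-like cells held 45.3 and 40.5% of its UMIs. Only 22 astrocyte-like cells were kept in the positive-titled library, and they were at 245 CPM (162 to 357, 27 UMIs), which overlaps the control-titled level. The whole positive-titled library held 266 Itgb8 UMIs, 2.82 CPM, against 3537 UMIs and 69.2 CPM in the control-titled library. Astrocyte-like cells were 19.5% of kept cells in the latter and 0.209% in the former, and carcinoma-like cells were at 0.398 CPM (0.260 to 0.583).

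The receptor genes were most abundant in microglia-like cells of the control-titled library. Tgfbr1 was at 884 CPM there (863 to 905, 7086 UMIs), with monocyte or macrophage-like cells next at 151 (135 to 169) and neuron-like cells at 105 (63.2 to 164, 19 UMIs), which overlap each other. The next class was pericyte-like, at 73.4 CPM. Microglia-like cells held 79.2% of the library's 8946 Tgfbr1 UMIs. Tgfbr2 was spread more widely, at 182 CPM in microglia-like (173 to 191), 162 in endothelial cell-like (147 to 177), 132 in monocyte or macrophage-like (117 to 149) and 100.2 in pericyte-like cells (80.5 to 123), each overlapping the next. It was lowest in astrocyte-like cells, at 12.9 CPM (10.4 to 15.8), and oligodendrocyte-like cells, at 15.4 CPM (13.9 to 17.1), whose intervals overlap. In the positive-titled library fibroblast-like (135 CPM, 109 to 166), endothelial cell-like (122, 98.9 to 149) and microglia-like cells (109, 98.9 to 121) had the highest Tgfbr2 levels, and their intervals overlap. Tgfbr1 was still highest in microglia-like cells there, at 100.3 CPM (90.3 to 111).

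Smad3, which carries the signal, was highest in astrocyte-like cells of the control-titled library (57.8 CPM, 52.4 to 63.6), apart from 5 UMIs in NK cell-like cells (53.1, 17.2 to 124), and microglia-like cells followed at 34.9 (31.0 to 39.3). In the positive-titled library carcinoma-like cells were at 39.9 CPM (38.4 to 41.4) and held 88.9% of its Smad3 UMIs, while astrocyte-like cells were at 45.4 CPM on 5 UMIs. Smad7, the feedback inhibitor, was highest in oligodendrocyte-like cells of both libraries, at 106 CPM (102 to 111) and 64.8 CPM (57.5 to 72.7). Microglia-like cells followed in the control-titled library at 87.1 CPM (80.7 to 93.8), and carcinoma-like cells in the positive-titled library at 46.4 (44.7 to 48.1).

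Tgfbi was highest in monocyte or macrophage-like and fibroblast-like cells in both libraries. In the control-titled library these were at 225 CPM (205 to 247) and 222 CPM (184 to 267) and no other class passed 41.2 CPM. They were at 1589 CPM (1568 to 1611, 22044 UMIs) and 418 CPM (370 to 470.0) in the positive-titled library, where monocyte or macrophage-like cells held 81.2% of 27151 Tgfbi UMIs. Microglia-like cells followed at 306 CPM (288 to 325), neutrophil-like cells at 218 (200 to 238) and dendritic cell-like cells at 189 (147 to 240), and the lowest were T cell-like cells, at 38.5 CPM (29.4 to 49.6), and carcinoma-like cells, at 39.8 CPM (38.3 to 41.4).

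**Figure D1:**
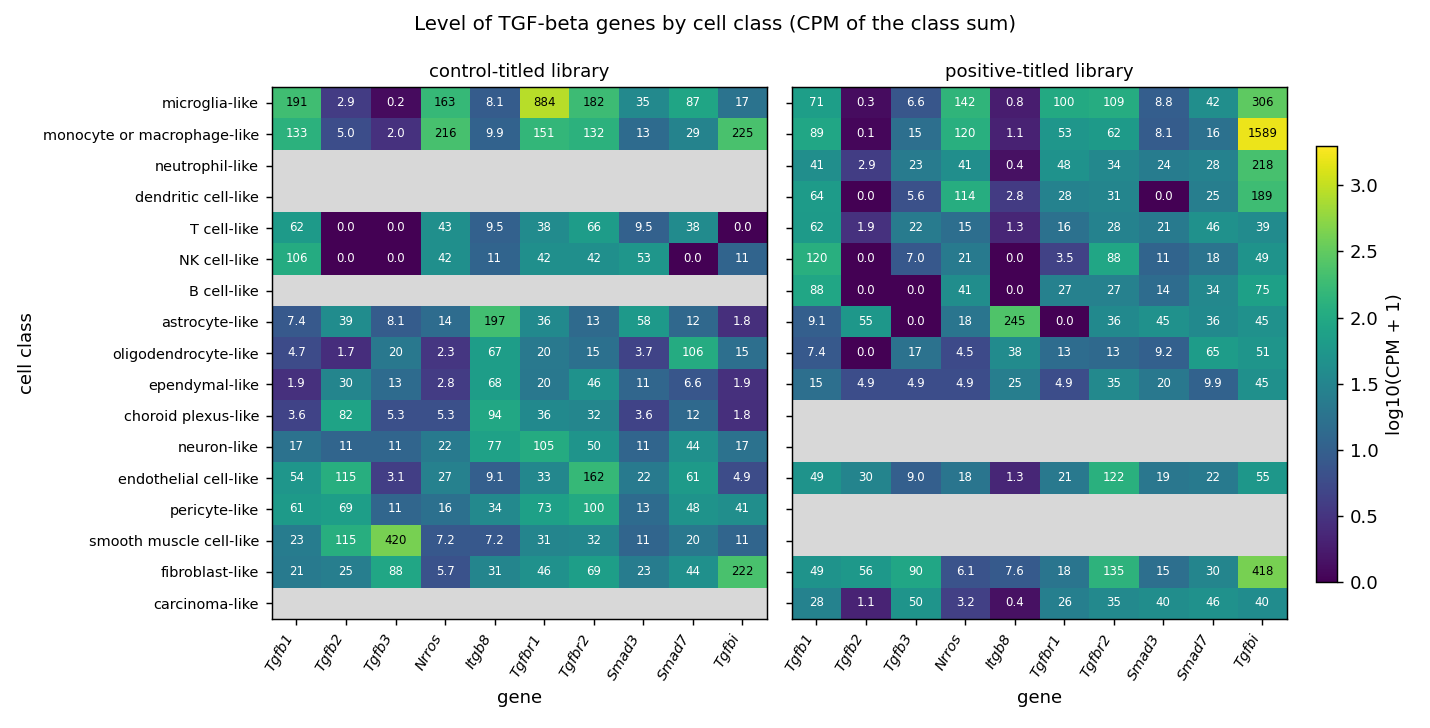
Level of each of the 10 genes (columns) in each cell class (rows), in CPM of the class sum, for the control-titled library on the left and the positive-titled library on the right. Colour is log10(CPM + 1), the printed values are CPM, and grey rows had fewer than 20 cells. Tgfbr1 in control-titled microglia-like cells (884 CPM), Tgfb3 in smooth muscle cell-like cells (420.4 CPM) and Tgfbi in positive-titled monocyte or macrophage-like cells (1589 CPM) are the brightest cells of their columns.

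Microglia-like cells had lower levels of both receptor genes and of Tgfb1 in the positive-titled library. Tgfbr1 was at 884 CPM in the control-titled and 100.3 CPM in the positive-titled library, a log2 ratio of -3.14 (95% interval -3.30 to -2.99, 8.80-fold). Tgfb1 was at 191 and 70.6 CPM (-1.44, -1.64 to -1.25), and Tgfbr2 at 182 and 109 CPM (-0.73, -0.90 to -0.57). Nrros, the anchor of latent TGF-beta1 on these cells, differed least, at 163 and 142 CPM (-0.20, -0.35 to -0.05). Smad3 was at 34.9 and 8.82 CPM (-1.97, -2.56 to -1.46) and Smad7 at 87.1 and 42.2 CPM (-1.04, -1.31 to -0.79), which came to within 2-fold under 4 of 10 alternatives (-0.70 when thinned to 1000 UMIs per cell). Itgb8 was at 8.11 and 0.827 CPM (3 UMIs) and Tgfb2 at 2.87 and 0.276 CPM (1 UMI). These low levels in control-titled cells can be set beside 197 CPM of Itgb8 in astrocyte-like and 115 CPM of Tgfb2 in endothelial cell-like cells, and the part of RNA from those cells was not tested.

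Tgfbi and Tgfb3 went the other way in microglia-like cells. Tgfbi was at 17.2 CPM in the control-titled library (14.5 to 20.3) and 306 CPM in the positive-titled library, a log2 ratio of 4.15 (3.90 to 4.42). Tgfb3 was at 0.249 and 6.61 CPM (24 UMIs, 4.24 to 9.84). The carcinoma-like level of Tgfb3 was 50.4 CPM, and carcinoma markers stood at 11.3% of their own level in these cells. Of the 10 genes, 2 were at least 2-fold higher, against 11.4% of the 12306 genes with at least 20 UMIs in this class, and 6 were at least 2-fold lower, against 25.7%. The class itself differed between the libraries. It came from different clusters, 1 led by Gcnt1, Ccr6 and Btk (2246 control-titled cells) and 1 led by Ccl12, Cxcl13 and Cx3cr1 (651 positive-titled cells). All 9 microglia markers had UMIs in both, but their summed level was 28383 CPM in the control-titled and 4692 CPM in the positive-titled library, with P2ry12 at 6966 and 307 CPM and Tmem119 at 1719 and 270.1 CPM. The 10 monocyte or macrophage markers summed to 654 and 2603 CPM, with Lyz2 at 591 and 1708 CPM and Chil3 at 0.125 and 63.1 CPM. Their part in the ratios of the 10 genes was not tested.

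Monocyte or macrophage-like cells had a 7.05-fold higher Tgfbi level in the positive-titled library, 1589 against 225 CPM (log2 ratio 2.82, 2.69 to 2.96). Both receptor genes were lower, Tgfbr1 at 151 and 53.3 CPM (-1.51, -1.70 to -1.31) and Tgfbr2 at 132 and 62.1 CPM (-1.09, -1.29 to -0.88). Relative to the class median of -0.26 given above, the Tgfbr2 ratio was -0.83, within 2-fold. With each cell named by its own markers the Tgfbr2 ratio was -0.84 and that of Tgfbr1 just within 2-fold. The 9 microglia markers summed to 6548 CPM in control-titled and 728 CPM in positive-titled cells of this class, and the 9 neutrophil markers to 155 and 1846 CPM. Their part in these ratios was not tested. Nrros was at 216 and 119.98 CPM (-0.85, -1.0 to -0.70), Smad7 at 29.3 and 16.2 CPM (-0.87, -1.28 to -0.42), Smad3 at 13.4 and 8.15 CPM (-0.74, -1.33 to -0.05) and Tgfb1 at 133 and 88.5 CPM (-0.59, -0.78 to -0.39). Itgb8 was at 9.92 and 1.08 CPM (20 and 15 UMIs), a log2 ratio of -3.19 that turned to 1.5 with the estimated free RNA subtracted. The subtraction left no Itgb8 counts in control-titled cells, so the value of 1.5 rests on the pseudocount. Tgfb3 was at 1.98 CPM (4 UMIs) and 15.1 CPM (13.2 to 17.3), a log2 ratio of 2.77 that was 0.54 when thinned. Carcinoma markers reached 11.1% of their level in carcinoma-like cells here. Tgfb2 had 10 and 2 UMIs and was not counted. Of the 9 genes counted, 2 were at least 2-fold higher, against 10.6% of 12449 genes, and 3 lower, against 21.2%.

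The positive-titled monocyte or macrophage-like class held 2 clusters of nearly equal size. The genes compared next had intervals that did not overlap between them, and the share of all genes for which this holds was not computed. The cluster led by Ccl8, Ccl6 and Mrc1 (1121 cells) was at 1164 CPM of Tgfbi (1141 to 1188), and the cluster whose leading genes include Chil3 and Ccr2 (1104 cells) was at 2198 CPM (2160 to 2237). Tgfbr2 was at 77.2 CPM (71.3 to 83.5) in the former and 40.3 CPM (35.3 to 45.9) in the latter. Tgfb3 was at 20.3 CPM (17.3 to 23.7) and 7.72 CPM (5.61 to 10.4), Nrros at 129 and 107 CPM, Tgfbr1 at 58.3 and 46.1 CPM, and Itgb8 had 15 and 0 UMIs. Both clusters exceeded the single control-titled cluster, led by Clec4a1, Cxcl13 and Ms4a7, in Tgfbi (213 CPM, 193 to 235). Tgfbr1 was lower in both than in that cluster, with log2 ratios of -1.40 (-1.61 to -1.18) and -1.73 (-1.98 to -1.49).

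**Figure D2:**
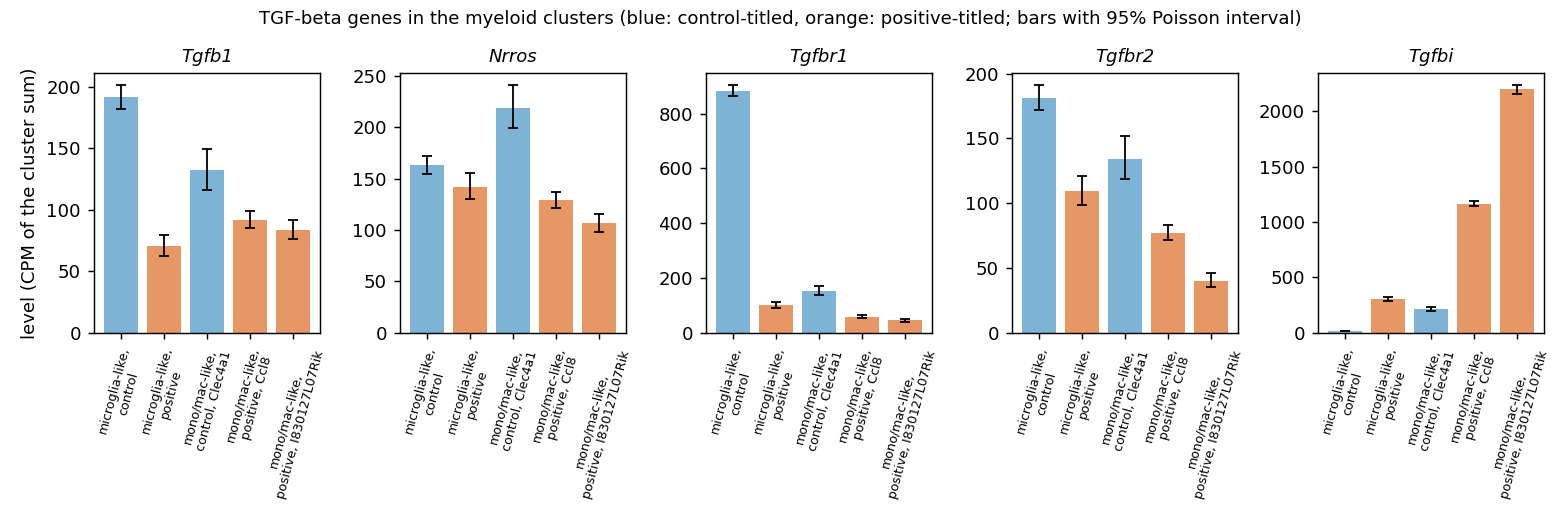
Levels of 5 of the genes (CPM of the cluster sum, bars with 95% Poisson intervals) in the microglia-like and monocyte or macrophage-like (mono/mac-like) clusters, each named by library and, for the latter, leading gene. Tgfbr1 was at 884 and 100.3 CPM in the microglia-like clusters and Nrros at 163 and 142 CPM, and Tgfbi was highest, at 2198 CPM, in 1 of the positive-titled monocyte or macrophage-like clusters.

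Oligodendrocyte-like cells, the myelinating cells, had lower Smad7 and Itgb8 levels in the positive-titled library, each by less than 2-fold. Smad7 was at 106 and 64.8 CPM (log2 ratio -0.71, -0.90 to -0.54) and Itgb8 at 67.4 and 38.2 CPM (-0.81, -1.05 to -0.59). Tgfbr1 was at 20.4 and 13.5 CPM (-0.59, -1.01 to -0.21). Tgfb3, at 20.2 and 16.6 CPM, and Tgfbr2, at 15.4 and 12.6 CPM, had ratios whose intervals include 0. Smad3 was higher, at 3.66 and 9.22 CPM (1.34, 0.76 to 1.88), as was Tgfbi, at 15.2 and 51.1 CPM (1.75, 1.51 to 2.0). Nrros was at 2.31 and 4.5 CPM and Tgfb1 at 4.71 and 7.42 CPM. Tgfb2 had 40 UMIs in control-titled and 0 in positive-titled cells, at least 2.50-fold lower with 3 counts per class sum as the floor. With the estimated free RNA subtracted, the fitted Tgfb2 ratio was -0.06 and the call was lost. Of the 10 genes, 2 were at least 2-fold higher, against 14.8% of 13583 genes, and 1 lower, against 17.1%.

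The direction of the Tgfbi ratio in oligodendrocyte-like cells depended on whether RNA from other cells was subtracted. Carcinoma markers reached 10.96% of their level in carcinoma-like cells, and subtracting RNA with the library's average composition at the share those markers allow (14.7% of the class RNA) turned the log2 ratio to -0.50. The control-titled cells formed 2 clusters, at 22.5 CPM of Tgfbi (20.01 to 25.1, led by Pak7) and 4.94 CPM (3.65 to 6.53, led by Nkx2-9), and the positive-titled cells 1 cluster led by Ermn, Mag and Nap1l5. All 8 oligodendrocyte markers had UMIs in both libraries. Of the 8 endothelial markers, whose sum was 135 and 9950 CPM, Ly6c1 alone made up 9925 CPM in positive-titled cells, and Cldn5 was at 18.2 and 7.20 CPM.

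Endothelial cell-like cells, which line the vessels, had lower Tgfb2 and Smad7 levels in the positive-titled library. Tgfb2 was at 115 and 29.6 CPM (log2 ratio -1.93, -2.64 to -1.35), and Smad7 at 61.4 and 21.9 CPM (-1.45, -2.30 to -0.77), which was -0.61 when thinned to 1000 UMIs per cell. Tgfbr2 was at 162 and 122 CPM (-0.40, -0.74 to -0.08). The intervals of Tgfb1 (53.7 and 48.9 CPM), Tgfbr1 (33.1 and 20.6), Smad3 (21.6 and 19.3) and Nrros (27.2 and 18.01) include 0. Itgb8 had 26 and 1 UMIs, a log2 ratio of -2.26 that was -0.44 when thinned and -0.68 with the estimated free RNA subtracted, and Tgfb3, with 9 and 7, was not counted. Tgfbi was at 4.88 CPM (14 UMIs) and 55.3 CPM (43 UMIs), a log2 ratio of 3.47 (2.60 to 4.49), which turned to -0.29 with the estimated free RNA subtracted. Carcinoma markers reached 13.9% of their level in carcinoma-like cells, and the 9 neutrophil markers summed to 7512 CPM in positive-titled cells, of which S100a8 made up 4648 CPM. Of the 9 genes counted, 1 was at least 2-fold higher, against 7.35% of 10314 genes, and 3 lower, against 16.2%.

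Tgfb2 differed among the endothelial cell-like clusters, and the libraries held different ones. Control-titled cells formed 4 clusters of at least 50 cells, and Tgfb2 was at 293 CPM (254 to 337) in the one led by Gkn3, Stmn2 and Sema3g, genes of arterial endothelium. It was at 102 CPM (76.0 to 133) in the cluster led by Car4 and Palmd, 67.7 (49.4 to 90.6) in the one led by Gm32688 and Slc38a5, and 19.5 (10.9 to 32.2) in the one led by Ackr1 and Lrg1, genes of venules. Positive-titled cells formed 1 cluster, led by Ackr1, Cldn5 and Vwf, at 25.9 CPM (15.8 to 40.0). Set against the Ackr1-led control-titled cluster alone, Tgfb2 had a log2 ratio of 0.39 (-0.63 to 1.47) in place of -1.93. Smad7 kept its direction in that comparison (-1.11, -2.05 to -0.27). Tgfbr2 varied less among the 4 control-titled clusters, from 139 to 187 CPM.

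**Figure D3:**
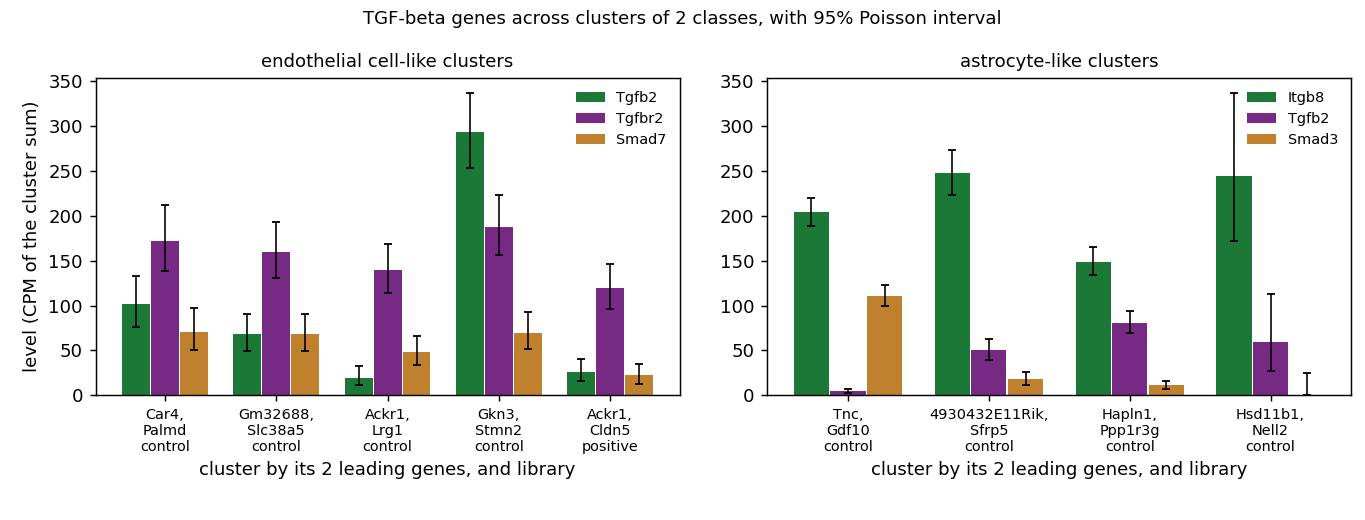
Levels (CPM of the cluster sum, with 95% Poisson intervals) of Tgfb2, Tgfbr2 and Smad7 in the endothelial cell-like clusters of both libraries, and of Itgb8, Tgfb2 and Smad3 in the control-titled astrocyte-like clusters, each cluster named by its 2 leading genes. Tgfb2 ran from 19.5 to 293 CPM among the control-titled endothelial clusters, and Smad3 reached 110.7 CPM in only 1 astrocyte-like cluster.

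Fibroblast-like cells were few, 96 and 72, and 2 of the 3 ligand genes were at least 2-fold higher in the positive-titled library. Tgfb1 was at 21.1 CPM (11 UMIs) and 48.6 CPM (32 UMIs), a log2 ratio of 1.16 (0.18 to 2.34), and Tgfb2 at 24.9 CPM (13 UMIs) and 56.2 CPM (37 UMIs), a log2 ratio of 1.14 (0.23 to 2.21). Tgfb3 was at 88.1 and 89.6 CPM (0.02, -0.56 to 0.61). Tgfbr2 was at 69.0 and 135 CPM (0.96, 0.40 to 1.57), Tgfbi at 222 and 418 CPM (0.91, 0.59 to 1.24), and Tgfbr1 at 46.0 and 18.2 CPM (-1.31, -2.47 to -0.28). Itgb8 had 16 and 5 UMIs (-1.92, -3.82 to -0.50). Smad3 and Smad7 had intervals that include 0, and Nrros, with 3 and 4 UMIs, was not counted. Of the 9 genes counted, 2 were at least 2-fold higher, against 14.7% of 7035 genes, and 2 lower, against 20.2%. Thinned to 1000 UMIs per cell, Tgfb2 turned to -0.72 and Tgfbr1 to 0.13. Without doublet removal Tgfb1 was at 0.81 and Tgfb2 at 0.65, with the mean of per-cell CPM Tgfb1 was at 0.62 and Tgfbr1 at -0.96, and with each cell named by its own markers Tgfb2 was at 0.47, all within 2-fold. The class differed in kind: collagen gene Col1a1 was at 339 and 7133 CPM and Col3a1 at 176 and 5766 CPM, while the 8 astrocyte markers summed to 3536 and 647 CPM, the 6 smooth muscle cell markers to 44.1 and 2228 CPM, and 75 of the control-titled cells came from a cluster led by Igfbp6, Prg4 and Cyp2f2.

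T cell-like values rest on 51 control-titled and 209 positive-titled cells. Tgfb1 was at 61.7 CPM (13 UMIs) and 62.3 CPM (97 UMIs), a log2 ratio of -0.03 (-0.83 to 0.98). Tgfbr2, which restrains T cells on binding TGF-beta, had 14 and 44 UMIs, 66.4 and 28.3 CPM (-1.27, -2.13 to -0.25), Tgfbr1 8 and 25 UMIs (-1.30, -2.43 to 0.12), and Nrros 9 and 23 UMIs (-1.58, -2.70 to -0.23). Tgfbi had 0 and 60 UMIs (at least 2.71-fold higher with 3 counts per class sum as the floor), and Tgfb3 0 and 35 UMIs (at least 1.58-fold), with a fitted log2 ratio of 0.77 when thinned. Of the 8 genes counted, 2 were at least 2-fold higher, against 20% of 8054 genes, and 3 lower, against 13.9%. Smad3 and Smad7 had intervals that include 0, and Tgfb2 and Itgb8, with 3 and 4 UMIs in all, were not counted. Carcinoma markers summed to 4011 CPM in positive-titled T cell-like cells, above the 3266 CPM of their own T cell markers. In control-titled cells the T cell markers summed to 8395 CPM. Monocyte or macrophage markers summed to 3529 and 910 CPM, microglia markers to 574 and 109 CPM, and neutrophil markers to 37.9 and 557 CPM. Their part in these ratios was not tested. Without the cluster of 79 cells led by Nkg7, Ccl1 and Ms4a4b, carcinoma markers were at 9.83% of their level in carcinoma-like cells in place of 50.3%. Tgfb3 then had 10 UMIs, 14.9 CPM, and a lower bound of -0.50 for its log2 ratio, and Tgfbi 27 UMIs (40.3 CPM). Tgfbr2 then had a log2 ratio of -1.67 (-2.85 to -0.49) and Tgfbr1, on 8 and 7 UMIs, -1.85 (-3.56 to -0.20). Nrros came to within 2-fold, at -0.96 (-2.22 to 0.44), and Tgfb1 was at 0.61 (-0.22 to 1.64). With the estimated free RNA subtracted from the whole class, Tgfb3 and Tgfbi had no counts left in either library.

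**Figure D4:**
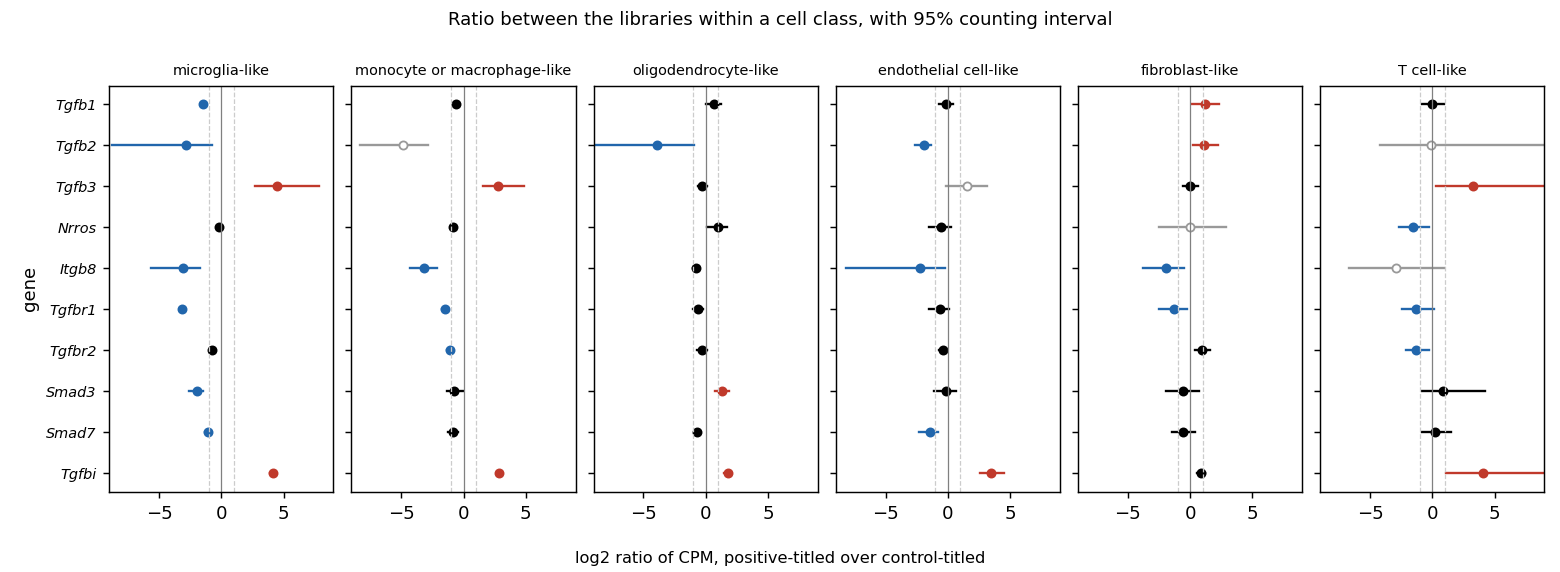
Log2 ratio of CPM, positive-titled over control-titled, for each of the 10 genes (rows) in the 6 compared classes (panels), with 95% counting intervals. Red points are at least 2-fold higher, blue points at least 2-fold lower, black points within 2-fold, open grey points had fewer than 20 UMIs over both class sums, dashed lines mark 2-fold, and lines that reach the panel edge continue beyond it. Tgfbi lies above 0 in all 6 panels, though it turned with estimated free RNA subtracted in oligodendrocyte-like and endothelial cell-like cells. In T cell-like cells that subtraction left no Tgfbi counts in either library. Tgfbr1 lies below 0 in all 6, though it turned in fibroblast-like cells when thinned, and its interval includes 0 in endothelial cell-like and T cell-like cells.

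Astrocyte-like clusters of the control-titled library had intervals that did not overlap between some of them for Smad3, Tgfb2, Itgb8, Nrros and Tgfbr1. The share of all genes for which this holds was not computed. The cluster of 612 cells led by Tnc, Gdf10 and Mybpc1 was at 110.7 CPM of Smad3 (99.7 to 123) and 4.20 CPM of Tgfb2 (2.30 to 7.05). The clusters led by 4930432E11Rik (536 cells) and Hapln1 (713 cells) were at 17.9 and 10.9 CPM of Smad3, and at 50.4 CPM (39.7 to 63.1) and 80.9 CPM (69.6 to 93.4) of Tgfb2. A cluster of 54 cells led by Hsd11b1 had 0 Smad3 UMIs and 59.5 CPM of Tgfb2 (27.2 to 113). Nrros was at 4.20 CPM (2.30 to 7.05) in the Tnc-led and 30.5 (22.3 to 40.7) in the 4930432E11Rik-led cluster. Tgfbr1 was at 29.1 CPM (23.6 to 35.5) in the Tnc-led and 48.5 (39.9 to 58.4) in the Hapln1-led cluster. Itgb8 was at 149 to 247 CPM in all 4. It was at 149 (134 to 166) in the Hapln1-led, 204 (189 to 220) in the Tnc-led and 247 (223 to 274) in the 4930432E11Rik-led cluster, intervals that do not overlap. The clusters were made without the 10 genes, so these contrasts did not enter their definition.

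Carcinoma-like clusters had intervals that did not overlap between some of them for Tgfb3, Smad3, Tgfbr1, Smad7, Tgfb1, Tgfb2, Tgfbr2 and Tgfbi. The share of all genes for which this holds was not computed. Tgfb3 was at 39.2 CPM in the cluster led by the cell division genes Ube2c, Pimreg and Ccnb1 (2317 cells). It was at 40.3 CPM in the one led by Iglc1, Igha and Pthlh (2020 cells), with overlapping intervals. The cluster led by Ibsp, Notum and Krt15 (813 cells) was at 79.5 CPM (73.1 to 86.2) and that led by Fetub, Ltf and Lcn2 (749 cells) at 96.6 CPM (89.5 to 104). Smad3 was at 59.0 and 56.8 CPM in the last 2, and at 31.1 and 40.1 CPM in the first 2. Tgfbr1 was at 34.8 and 35.6 CPM in the last 2, and at 23.4 and 22.9 CPM in the first 2. Smad7 was at 70.1 CPM (64.2 to 76.5) in the Ibsp-led cluster, 51.3 (46.2 to 56.8) in the Fetub-led cluster, and 40.3 and 45.3 CPM in the first 2. Tgfb2 was near its floor, with 16 UMIs in the Ibsp-led and 0 in the Fetub-led cluster. Tgfb1 was lowest in the Fetub-led cluster, at 15.5 CPM (12.8 to 18.7), and at 28.5 to 32.5 CPM in the others. Tgfbi was at 44.0 CPM (41.2 to 47.0) in the Iglc1-led cluster. It was at 38.7 (36.5 to 41.0) in the Ube2c-led and 35.2 (31.0 to 39.8) in the Fetub-led cluster. Tgfbr2 was at 36.8 CPM (34.3 to 39.6) in the Iglc1-led and 29.7 (25.8 to 33.9) in the Fetub-led cluster. There was no control-titled class to set these against.

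The other pathway genes were 40 in 5 lists by role. Their values are given without subtraction of RNA from other cells, and its part in them is not shown here. Carcinoma markers reached 10.96 to 13.9% of their level in carcinoma-like cells in the compared classes other than T cell-like cells. Over all genes counted in microglia-like cells, 11.4% were at least 2-fold higher and 25.7% lower, the shares beside which the counts of each list stand. In microglia-like cells 5 of 9 targets were at least 2-fold higher and 2 lower, with a median log2 ratio of 2.23, against -0.36 for all 12306 genes counted. Fn1, the matrix gene fibronectin, was at 7.24 and 381 CPM, Timp1 at 0.624 and 20.1 CPM and Postn at 2.49 and 17.6 CPM. Receptors and co-receptors were lower for 3 of 4 counted (median -1.47), with the co-receptor gene Eng at 92.7 and 27.01 CPM, Acvr1 at 24.9 and 8.82 CPM and Bmpr2 at 71.6 and 25.9 CPM. Inhibitors were lower for 4 of 9 and higher for 1. Pmepa1, a feedback inhibitor that traps receptor SMADs, was at 337 and 105 CPM and Ldlrad4 at 75.1 and 23.4 CPM, while Bambi was at 4.49 and 14.1 CPM. Of 11 latent-complex and activation genes counted, 5 were higher and 3 lower, Itgb3 at 30.6 and 1.65 CPM and the protease gene Mmp14 at 16.6 and 109 CPM. Ltbp3, which tethers the latent complex to the matrix, was at 2.99 and 31.4 CPM. The 4 SMAD transducers were all within 2-fold. Of 6 microglia genes known to depend on TGF-beta, 2 were lower, against 25.7% of all genes, and 4 within 2-fold, with Gpr34 at 1979 and 80.5 CPM, Olfml3 at 1621 and 135 CPM and Mertk at 351 and 177 CPM.

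Monocyte or macrophage-like cells had 5 of 8 targets counted higher and none lower (median 2.2, against -0.29 for all genes, of which 10.6% were higher and 21.2% lower). Fn1 was at 93.8 and 964 CPM, and Ctgf at 0.496 CPM (1 UMI) and 11.03 CPM. Latent-complex and activation genes were higher for 6 of 11 and lower for 3 (median 1.26), with Thbs1, whose product thrombospondin 1 can release the latent cytokine, at 2.48 and 58.5 CPM, Ltbp1 at 0.992 and 10.1 CPM (2 and 140 UMIs) and Ltbp2 with 0 and 101 UMIs (at least 4.89-fold higher). Of 4 receptors counted 1 was lower (Acvr1, 13.9 and 3.97 CPM), of 4 SMAD transducers 1 (Smad5, 18.8 and 8.87 CPM). Inhibitors were higher for 2 of 9, Tgif1 (44.6 and 104 CPM) and Smad6 (1 and 50 UMIs), and lower for 1, Ldlrad4 (20.8 and 7.43 CPM). Of the 6 TGF-beta dependent microglia genes 4 were lower, with Gas6 at 122 and 6.85 CPM, Gpr34 at 217 and 14.3 CPM and Olfml3 at 548 and 44.0 CPM, and 1 was higher. They stood beside the microglia markers of this class, at 6548 and 728 CPM, whose part was not tested.

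Fibroblast-like cells had 8 of 9 targets higher and 1 lower (median 2.21, against -0.17 for all genes, of which 14.7% were higher and 20.2% lower). Postn, periostin of activated fibroblasts, was at 1.92 CPM (1 UMI) and 656 CPM, and Ctgf was at 32.6 and 603 CPM. Pmepa1 was at 78.5 and 399 CPM, 1 of 2 inhibitors higher among 6. Latent-complex and activation genes were higher for 6 of 10, among them Mmp14 (95.8 and 313 CPM) and Thbs1 (82.4 and 193 CPM), and lower for 1, Ltbp4 (146 and 15.2 CPM). Of 5 receptors 1 was higher, Tgfbr3 was at 95.8 and 53.1 CPM, and the 4 SMAD transducers were within 2-fold.

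Endothelial cell-like cells had 4 of 8 targets higher and 1 lower (median 0.99, against -0.21 for all genes, of which 7.35% were higher and 16.2% lower). Ctgf was at 12.9 and 556 CPM, Timp1 at 7.32 and 78.5 CPM and Fn1 at 430.02 and 1117 CPM. Ltbp4 was at 303 and 24.4 CPM, the only 1 of 8 latent-complex genes lower, while 2 were higher. The endothelial receptor genes Acvrl1 (373 and 205 CPM) and Eng (707 and 488 CPM) were within 2-fold, and Acvr1 (32.4 and 15.4 CPM) was the 1 receptor of 5 lower. Inhibitors were lower for 2 of 9, Smad6 (20.6 and 6.43 CPM) and Bambi (83.7 and 38.6 CPM), and Smad1 was at 51.96 and 103 CPM.

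Oligodendrocyte-like cells had 6 of 8 targets higher and none lower (median 2.83, against -0.20 for all genes, of which 14.8% were higher and 17.1% lower), with Timp1 at 0.253 and 26.3 CPM, Fn1 at 4.21 and 126 CPM and Junb, an immediate early transcription factor gene, at 27.3 and 234 CPM. Inhibitors were higher for 3 of 8, Tgif1 (0.926 and 18.2 CPM), Bambi (5.18 and 25.9 CPM) and Pmepa1 (15.4 and 46.3 CPM), and SMAD transducers for 2 of 4, Smad1 (14.1 and 39.8 CPM) and Smad2 (4.21 and 10.3 CPM). Latent-complex genes were higher for 5 of 11, with Ltbp3 at 2.02 and 29.7 CPM and Mmp14 at 1.52 and 18.9 CPM, and lower for 1, Itgb3, at 10.6 and 1.57 CPM. In T cell-like cells 8 of 10 latent-complex and activation genes (median 3.24, against 0.04 for all genes, of which 20% were higher and 13.9% lower) and 5 of 6 targets (median 3.05) were higher. Ltbp3 had 0 and 198 UMIs there, Timp1 0 and 148 UMIs and Fn1 7 and 635 UMIs, beside carcinoma markers at 50.3% of their level in carcinoma-like cells.

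**Figure D5:**
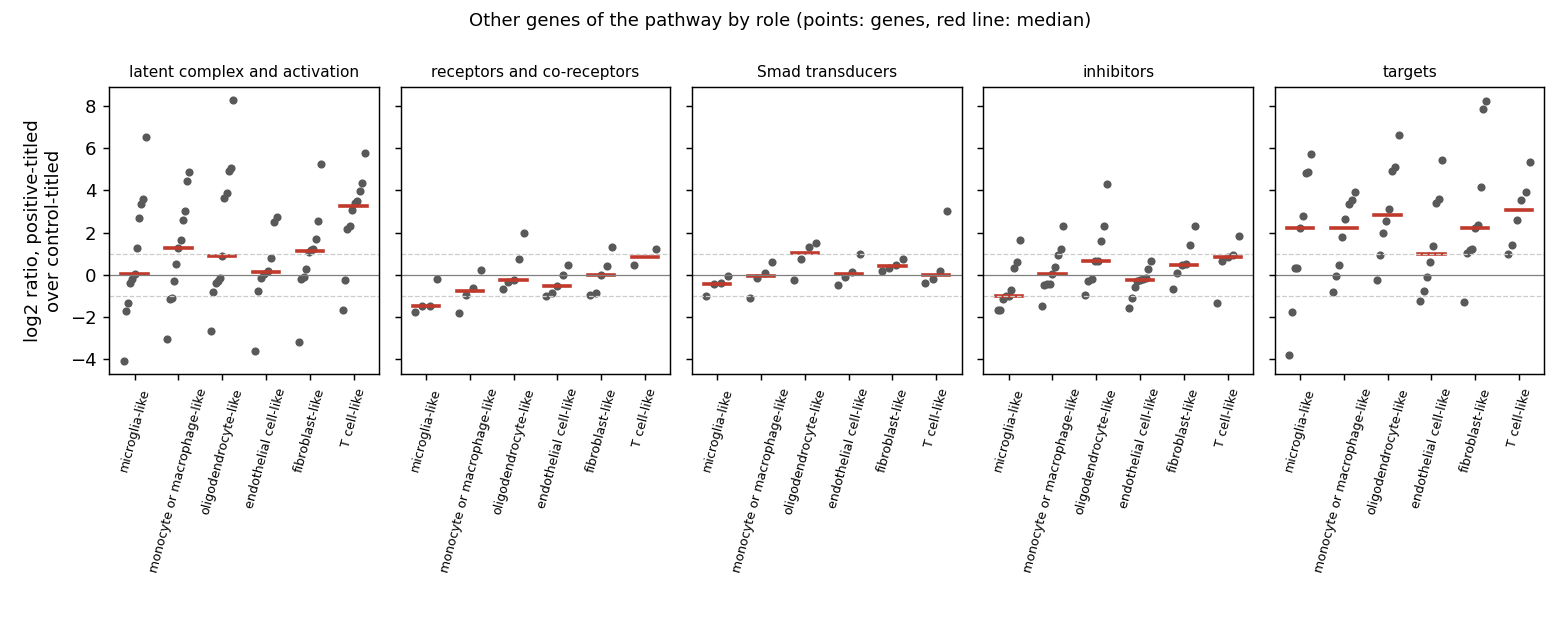
Log2 ratios, positive-titled over control-titled, of the pathway genes outside the 10, by role (panels) and cell class (x axis); points are genes with at least 20 UMIs over both class sums, red lines are medians, and dashed lines mark 2-fold. Targets have medians of 2.2 to 2.83 in microglia-like, monocyte or macrophage-like, fibroblast-like and oligodendrocyte-like cells, and 0.99 in endothelial cell-like cells. Their median is highest, at 3.05, in T cell-like cells, where carcinoma markers reached 50.3% of their level in carcinoma-like cells. Receptors and co-receptors have a median of -1.47 in microglia-like cells.

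Across the 10 control-titled classes with at least 50 cells, the genes most like each member were sought among 9073 genes with at least 500 UMIs, by Pearson's r of log2(CPM + 1). The points share 1 library and its depth, so r describes these class sums only. Tgfbr1 was most like Ctsd (0.977), Gpr34 (0.976) and P2ry12 (0.971), of which P2ry12 is also a marker that named the microglia-like class. Nrros was most like Tnfrsf1b (0.975), Il4ra (0.967) and Cyth4 (0.963), and Tgfb1 like Mb21d1 (0.981), Fhod1 (0.978) and Ptbp3 (0.970). Itgb8 was most like Pxmp2 (0.971), Rida (0.961) and 6430503K07Rik (0.959), and Tgfb2 like Dlc1 (0.973), Cyr61 (0.967) and Arhgef12 (0.963). For Tgfbr2 (6030458C11Rik, Tmed9, Ier2) and Tgfb3 (Snhg18, mt-Nd2, Mmadhc) r ran from 0.926 to 0.969. The closest genes of Smad7, Tgfbi and Smad3 were Kdm6a (0.958), P4hb (0.889) and Cd164 (0.886).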

How the data were processed

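The deposited values are raw UMI counts per gene and barcode, 1 matrix per library. Cells had been captured on a Singleron GEXSCOPE chip, per the labels' protocols, and Cell Ranger (version not given) and GRCm38 are named in the submitters' processing notes. The annotation, cell calling and strand setting were each not given in the sources used here.

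Barcodes needed 200 or more genes and no more than 20% mitochondrial UMIs (11 and 5 left out of the control-titled and positive-titled library). Scrublet in scanpy 1.11.5 then marked 600 (5.77%) and 300 (2.77%) as doublets, which were removed. A first random seed had failed in the control-titled library, marking nearly no barcode, so the seed was changed. Both libraries were clustered together, without integration (counts scaled to 10000, 2000 variable genes, 30 principal components, 15 neighbours, Leiden resolution 1). The 10 genes, the pathway lists and mitochondrial genes were left out of clustering. Clusters were named from 21 marker lists (152 genes found) where the mean log2 ratio of the markers over the lower quartile (0.25) of clusters of the same library reached 1.5 and at least 3 markers were detected. Mixed clusters (second class within 1.5, or other markers leading) were clustered again, and those still mixed were left out: 4.60% of control-titled and 0.541% of positive-titled cells. This rule was revised after clusters had been seen, since earlier versions left many of them unnamed.

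UMIs were summed per class and library. Ratios used a pseudocount of 0.5 counts and conditional exact binomial intervals. A gene was counted with at least 20 UMIs over both class sums, and called at 2-fold. The calculation was tested on simulated data. The members and lists were chosen with earlier results of these data known. The text names all 10 members, up to 3 pathway genes per list and class with the largest ratio among those with at least 50 UMIs in the higher class, and the 3 genes most like each member. The values of 1 pathway gene, which is included in the counts and medians of its list, are not reported here. Genes named as leading or as markers were chosen after their values were seen, other than by that rule. Alternatives were 10 settings of cells, classes and scaling, 2 of the counting rule, and 5 comparisons of single clusters, the last chosen after seeing the data. When cells were thinned, the same members were counted as in the whole data, a choice made after a first run.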

Additional observations from a re-analysis of the deposited data

Results flagged for a closer look

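Members that were at least 2-fold higher in 1 class and at least 2-fold lower in another are given here. In none of them was the difference between classes tested. Tgfb1 had a log2 ratio of 1.16 in fibroblast-like and -1.44 in microglia-like cells, and its fibroblast-like call was lost under 2 of 10 alternatives, down to 0.62. Tgfb2 was at 1.14 in fibroblast-like cells, and at -1.93 in endothelial cell-like, -2.83 in microglia-like and -3.92 in oligodendrocyte-like cells, where the last 2 rest on 1 and 0 positive-titled UMIs and the fitted value depends on the pseudocount. Its fibroblast-like call was lost under 3 of 10 alternatives and turned to -0.72 when thinned, and its oligodendrocyte-like call was lost, at -0.06, with the estimated free RNA subtracted. Smad3 was at 1.34 in oligodendrocyte-like and -1.97 in microglia-like cells.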

How the results depend on the processing

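No paired analysis was possible because each group has 1 library, and for the same reason no replicate could be left out. Of 29 calls at 2-fold, each a member in a class, all kept their direction under 8 of 10 settings. The exceptions came with thinning to 1000 UMIs per cell, where 27 did, and with estimated free RNA subtracted, where 24 did. Among the latter exceptions, Tgfb3 and Tgfbi in T cell-like cells had no counts left in either library, so they had no direction to keep. Shares over all genes are given for the main setting only. The counts of members in the paragraphs below have no such share beside them and cannot be read as particular to the members.

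Subtracting the estimated free RNA turned Tgfbi in endothelial cell-like (-0.29) and oligodendrocyte-like cells (-0.50). Itgb8 in monocyte or macrophage-like cells came to 1.5, a value that rests on the pseudocount, with no control-titled counts left. Tgfb3 and Tgfbi in T cell-like cells had no counts left in either library. Their fitted value, -1.53 for both, is set by the pseudocount and the class totals. Members called higher became 0 in T cell-like and 0 in endothelial cell-like cells, those called lower 6 in T cell-like and 0 in oligodendrocyte-like cells. The 6 include Tgfb3 and Tgfbi, so that count is not a result about levels. At a fixed 5%, 4 members were higher in oligodendrocyte-like cells.

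Thinned, Tgfb2 was at -0.72 and Tgfbr1 at 0.13 in fibroblast-like cells, Tgfb1 at -1.68 in microglia-like cells, 1 member was lower in endothelial cell-like and 1 higher in monocyte or macrophage-like cells. With each cell named by its own markers, Tgfb1 was at -1.64 and Tgfbr1 at -2.85 in microglia-like cells and Tgfbi at 2.18 in monocyte or macrophage-like cells. There, 5 members were lower in endothelial cell-like cells, 1 higher and 1 lower in fibroblast-like cells, and 1 higher in microglia-like cells.

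Without doublet removal, 0 members were higher in fibroblast-like and 4 in oligodendrocyte-like cells. With the mean of per-cell CPM, 1 was higher and 1 lower in fibroblast-like cells and 5 lower in monocyte or macrophage-like cells. Relative to the median of all genes, 4 were higher in fibroblast-like cells and Tgfbi was at 3.08 in monocyte or macrophage-like cells. With no minimum of UMIs, 2 were higher in endothelial cell-like cells. At 1.5-fold, 4 were higher in fibroblast-like and 4 in oligodendrocyte-like cells, 7 lower in monocyte or macrophage-like and 4 lower in oligodendrocyte-like cells.

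In single clusters, Tgfb2 was at 0.39 in Ackr1-led endothelial cells, and Tgfbi at 2.45 and 3.36 in the positive-titled monocyte or macrophage-like clusters, the latter with 5 members lower. Against the Nkx2-9-led oligodendrocyte-like cluster, 4 were higher and 2 lower. The cause was not tested for any of these values. Precision is limited by UMI number in the fibroblast-like, endothelial cell-like and T cell-like classes, each with under 100 cells in at least 1 library.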
